A study of Mus musculus with 31 samples.

Results

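The genes described here make cholesterol, sense its level, release it from lysosomes or move it out of the cell, and they were read in fetal mouse gonads at embryonic day 14.5. The list holds 33 genes, chosen by name, and a gene was read through the probe sets whose only gene symbol was its own, taking the one with the highest mean over all arrays. Of the 33 genes, 31 had such a probe set, and Acat2 and Soat1 were not analysed here. A filter kept genes above their array's median signal on at least 3 arrays, which left 30 of the 31 among 11777 genes in all. Nr1h3, which encodes the sterol-sensing nuclear receptor LXR alpha, fell below it with signals of 50.3 to 135 on the 31 arrays.

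Cholesterol is built from acetyl-CoA in a mevalonate arm, which ends at farnesyl diphosphate, and a sterol arm, which runs from squalene through lanosterol to cholesterol. Transcription of most of these enzymes is driven by the SREBP factors, which the escort protein SCAP carries out of the endoplasmic reticulum when sterols are low and which INSIG proteins hold back when sterols are high. In the fetal testis, Leydig cells use cholesterol as the substrate of androgen synthesis, a pathway that the fetal ovary of this stage largely lacks.

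The arrays, 31 in all, each held RNA of 1 pair of gonads freed of the mesonephros, so the p-values measure the spread between embryos. XX and XY gonads of 4 genotypes were compared, with 4 arrays per group and 3 for the XY double knockout. Every embryo, controls included, carried 1 Sf1-cre transgene, in which Sf1 regulatory sequence drives Cre in the somatic cells and not the germ cells, and at least 1 floxed allele of each gene. Controls (Ctr) were Ctnnb1 +/f and Sox9 +/f, so they had 1 allele of each gene open to deletion. Ctnnb1KO gonads were Ctnnb1 f/f and Sox9 +/f, Sox9KO gonads were Ctnnb1 +/f and Sox9 f/f, and double knockouts (DKO) were f/f for both. Ctnnb1 encodes beta-catenin of the WNT pathway and Sox9 the factor that directs Sertoli cell differentiation.

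Signal is the linear MAS5 value, tests used log2(signal + 16), and a gene was called at a limma adjusted p under 0.05 over the 11777 genes of a comparison. Sox9 signal was 857, 839.7, 1025 and 995 in XY Ctr and between 7.14 and 41.7 in XY Sox9KO, as the labels state. The Ctnnb1 probe set read 11716 to 12765 in XX Ctnnb1KO and 11002 to 13786 in XX Ctr, so it gives no check of the Ctnnb1 labels, and its place relative to the deleted part was not examined. Lgr5, Wnt4 and the other 4 pregranulosa markers were called lower in XX Ctnnb1KO than in XX Ctr, also without the array described next. Replicate 4 of XX Ctnnb1KO had an Xist signal of 51.1, against 7886 to 8553 on the other XX Ctnnb1KO arrays, with a Y-linked Eif2s3y signal of 29.6, where XY arrays read 2516 to 3710. It thus showed neither the Xist level of the other XX gonads nor the Eif2s3y level of XY gonads, and the results of its group that follow are given with and without it. Sertoli cell markers summed to 23219 to 28028 in XY Ctr and 1674 to 2192 in XX Ctr, and pregranulosa markers to 964 to 1092 and 8791 to 9764. Because whole gonads were used, fewer cells of a type and less RNA per cell cannot be told apart in any value given here.

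Promoters of members that moved together are shown first. RefSeq promoter windows (GRCm38, 250 bases before to 50 after a start) were held for 24 of the 30 members, 14 of them synthesis enzymes. The 250 bases before the start are printed for 5 enzymes on the strand of the gene. Capitals mark matches to the sterol regulatory element TCACNCCAC, the CCAAT box CCAAT and the NR5A1 (SF1) motif CAAGGNCA on either strand, so a CCAAT box on the other strand reads ATTGG. Hmgcs1 (chr13:119690101-119690350, plus strand) is shown as the 1 member with a sterol element match. Lss (chr10:76531355-76531604, plus strand), Tm7sf2 (chr19:6067851-6068100, minus strand) and Msmo1 (chr8:64733579-64733828, minus strand) are enzymes with large differences between testis and ovary. Dhcr7 (chr7:143822917-143823166, plus strand, 1 of its 3 windows) is shown for its NR5A1 match.
Hmgcs1: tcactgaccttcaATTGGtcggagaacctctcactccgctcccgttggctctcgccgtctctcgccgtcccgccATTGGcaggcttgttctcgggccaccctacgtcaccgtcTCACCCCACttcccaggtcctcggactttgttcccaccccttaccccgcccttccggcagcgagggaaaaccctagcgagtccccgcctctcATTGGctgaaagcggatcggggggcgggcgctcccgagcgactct
Lss: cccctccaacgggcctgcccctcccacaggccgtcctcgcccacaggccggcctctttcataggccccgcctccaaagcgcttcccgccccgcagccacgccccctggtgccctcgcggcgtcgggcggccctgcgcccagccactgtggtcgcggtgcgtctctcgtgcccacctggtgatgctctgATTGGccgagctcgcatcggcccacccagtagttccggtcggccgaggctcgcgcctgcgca
Tm7sf2: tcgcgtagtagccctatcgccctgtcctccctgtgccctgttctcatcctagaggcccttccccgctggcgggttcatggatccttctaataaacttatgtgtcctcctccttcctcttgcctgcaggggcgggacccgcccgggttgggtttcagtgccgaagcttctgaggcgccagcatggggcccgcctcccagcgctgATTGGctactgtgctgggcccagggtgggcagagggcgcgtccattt
Msmo1: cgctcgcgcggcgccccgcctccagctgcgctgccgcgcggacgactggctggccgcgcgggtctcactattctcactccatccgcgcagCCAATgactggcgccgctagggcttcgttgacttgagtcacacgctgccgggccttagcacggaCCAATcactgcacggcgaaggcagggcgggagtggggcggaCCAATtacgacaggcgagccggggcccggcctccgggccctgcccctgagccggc
Dhcr7: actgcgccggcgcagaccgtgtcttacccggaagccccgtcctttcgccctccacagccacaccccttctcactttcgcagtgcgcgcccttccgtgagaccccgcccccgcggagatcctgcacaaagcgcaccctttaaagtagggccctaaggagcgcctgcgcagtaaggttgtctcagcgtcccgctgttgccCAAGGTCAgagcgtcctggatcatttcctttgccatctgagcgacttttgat

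In Hmgcs1 the sterol element lies 137 bases before the start, with CCAAT boxes 237, 176 and 45 bases before it. Msmo1 has CCAAT boxes 160, 96 and 55 bases before its start, Lss 1 at 62 and Tm7sf2 1 at 47 bases. The NR5A1 match of Dhcr7 begins 52 bases before its start. Over the full windows, a CCAAT box was found in at least 1 window of all 14 synthesis enzymes that had one, and in 61.76% of the 34 member windows against 37.41% of 32851 mouse promoter windows. The Sp1 box GGGCGG was in 76.47% of member windows against 35.66%, and the E-box CACGTG in 17.65% against 7.15%. The sterol element was in 2.94% of member windows against 1.24%, and the NR5A1 motif in 2.94% against 6.71%, 1 window in each case. These shares are per window, and the 34 member windows come from 24 genes. Member windows were limited to genes past the filter, while the 32851 windows were not, so the shares are not like for like. The share of all genes with a match in at least 1 window was not taken. None of these 5 motifs contains another, and a match is a description of letters, not of binding.

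The enzymes that build cholesterol were higher in the control testis than in the control ovary along nearly the whole pathway. Of the 17 synthesis enzymes measured, 16 were called higher in XY Ctr than in XX Ctr and 0 lower, with a median log2 difference of 1.06 against -0.02 over all genes. Over all 30 members, 22 were higher and 2 lower, where 37.8% of all genes were called (18% higher and 19.8% lower). The arrays of XY Ctr and XX Ctr did not overlap for 21 members, against 34.3% of all genes.

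In the mevalonate arm, Fdps, which makes farnesyl diphosphate, had signals of 707, 712, 959.8 and 1053 in XX Ctr and 2619, 2283, 2527 and 2743 in XY Ctr. Every testis array was thus above every ovary array, and the log2 difference was 1.57 ± 0.14 (SE), a 2.97-fold difference (adjusted p = 7.18e-11). Mvd, the mevalonate diphosphate decarboxylase, had 351, 362, 316 and 295 in XX Ctr and 802, 688, 635 and 715 in XY Ctr, a difference of 1.06 (adjusted p = 1.74e-08). Mvk, which phosphorylates mevalonate, had 264, 312, 273 and 253 in XX Ctr and 437, 483, 511 and 419 in XY Ctr. Its difference was 0.71 (adjusted p = 2.42e-05), again with no overlap, and its other probe set gave 0.28 (adjusted p = 0.172). Pmvk, the next kinase, had 994, 928, 1073 and 933 in XX Ctr and 1735, 1609, 1741 and 1666 in XY Ctr, a difference of 0.77 (adjusted p = 2.46e-05). Hmgcs1, which makes HMG-CoA at the head of the arm, and Idi1, the isopentenyl diphosphate isomerase, were also higher, by 0.45 and 0.51. Acss2, which makes acetyl-CoA from acetate, was not called. It varied from 1817 to 4189 between arrays of XX Ctr alone, and the 95% interval of its difference was -0.43 to 0.98.

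In the squalene and sterol arm 10 of 10 enzymes were higher, with log2 differences from 0.85 for Sc5d to 1.82 for Tm7sf2. Lss, which closes squalene epoxide to lanosterol, had signals of 945, 1102, 1149.6 and 1173 in XX Ctr and 4019, 3335, 3745 and 3932 in XY Ctr, a 3.41-fold difference (1.77 ± 0.08 (SE), adjusted p = 7.87e-17). Cyp51, the lanosterol demethylase, had 1554, 1447, 1229 and 1352 in XX Ctr and 4149, 3714, 3348 and 3950.3 in XY Ctr (1.43 ± 0.09 (SE), adjusted p = 5.21e-14). Both genes separated the sexes with a wide gap. Msmo1, a sterol methyl oxidase, had 615, 490.0, 350.0 and 364 in XX Ctr and 1479.9, 1605, 1312 and 1868 in XY Ctr (1.77 ± 0.13 (SE), adjusted p = 1.21e-12). Dhcr7, the reductase of the last step to cholesterol, had 1499, 1630.4, 1432 and 1669.9 in XX Ctr and 5066, 4509, 4701 and 4477 in XY Ctr (1.58 ± 0.11 (SE), adjusted p = 2.98e-13). The lowest testis array was above the highest ovary array for both. Tm7sf2, a sterol reductase, differed 3.54-fold, from 198 ± 27.5 (SD, n = 4) to 737 ± 73.0 (SD, n = 4). Lbr, which encodes another protein with that reductase activity and is not a member, was not called (-0.28, adjusted p = 0.081).

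**Figure D1:**
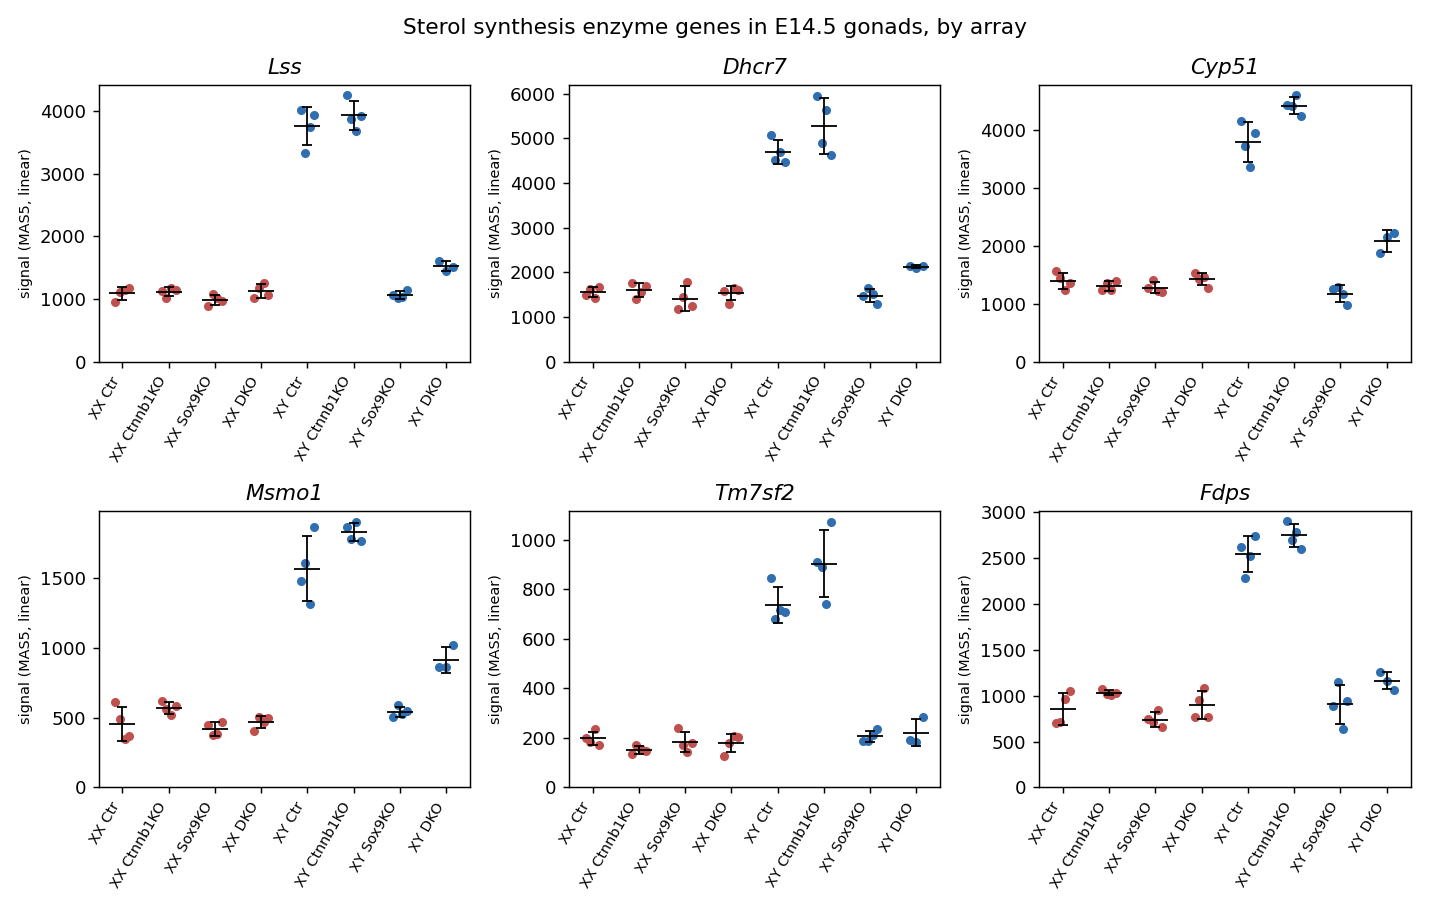
Signal (MAS5, linear axis) of Lss, Dhcr7, Cyp51, Msmo1, Tm7sf2 and Fdps on each array of the 8 groups, with points for arrays (red XX, blue XY) and black lines for the group mean and SD. XY Ctr and XY Ctnnb1KO stand high, the 4 XX groups and XY Sox9KO low, and XY DKO lies above XY Sox9KO for Lss, Dhcr7, Cyp51 and Msmo1 while Tm7sf2 and Fdps were not called there.

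Without Sox9, the enzymes were lower in XY gonads along nearly the whole pathway. Of the 17 synthesis enzymes, 16 were lower in XY Sox9KO than in XY Ctr and 0 higher (median -1.02 against 0.05 over all genes). Over the 30 members, 21 fell and 1 rose, where 38.7% of all genes were called (22.7% higher and 16% lower). The arrays of these groups did not overlap for 20 members, against 35.3% of all genes. This comparison and the one between the control sexes share the 4 XY Ctr arrays, so their values are given side by side and not as independent findings. In XY Sox9KO, Lss signals were 1061, 1009, 1033 and 1147, all below every XY Ctr array, and the gene fell 3.5-fold (-1.81 ± 0.08 (SE), adjusted p = 5.39e-17). Cyp51 signals were 1259, 1284, 1171 and 974.7 (-1.68 ± 0.09 (SE), adjusted p = 1.36e-15). Dhcr7 had 1461, 1642, 1516 and 1297 (-1.66 ± 0.11 (SE), adjusted p = 1.16e-13). Neither gene overlapped with the control testis. Msmo1 had 507, 588, 527 and 544 (-1.50 ± 0.13 (SE)), and Tm7sf2 differed by -1.77.

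The mevalonate arm fell with it in 6 of 7 enzymes. Fdps had 891, 1147, 636 and 945 in XY Sox9KO (-1.50 ± 0.14 (SE), adjusted p = 1.97e-10), and Mvd had 303, 368, 358 and 377 (-0.98 ± 0.12 (SE), adjusted p = 8.05e-08). Mvk signals were 293, 228, 216 and 353 (-0.75), and Pmvk signals 1186, 1001, 907 and 765 (-0.81). These 4 enzymes had no XY Sox9KO array at the level of an XY Ctr array. Idi1 changed by -0.88 and Hmgcs1 by -0.31 (adjusted p = 0.0166, and 0.0774 to 0.0985 without XY Ctr replicate 3 or XY Sox9KO replicate 2). The 4 other Hmgcs1 probe sets past the filter gave larger falls, -0.82 (adjusted p = 5.52e-05), -0.72 (adjusted p = 1.96e-06), -0.63 (adjusted p = 3.52e-07) and -0.96 (adjusted p = 0.0017), the p-values being from a limma fit over all probe sets. Acss2 again was not called (-0.01, 95% interval -0.72 to 0.69).

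Against the control ovary, 0 members were called in XY Sox9KO, where 0.628% of all genes were (0.442% higher and 0.187% lower). At an unadjusted p under 0.05, limma gave 6 members and 2136 genes. The 17 synthesis enzymes differed by -0.37 to 0.28, and their 95% intervals together spanned -0.68 to 0.97. Lss averaged 1062 ± 60.3 (SD, n = 4) in XY Sox9KO and 1093 ± 103 (SD, n = 4) in XX Ctr, with an interval of -0.21 to 0.14 for the difference.

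Sox9 loss in XX gonads moved 0 members, where 0% of all genes were called; limma gave 537 genes and 3 members at an unadjusted p under 0.05, and arrays did not overlap for 2 members and 2.08% of all genes. Synthesis enzymes differed by -0.47 to 0.35 from XX Ctr, with intervals spanning -0.77 to 1.05. The difference between the sexes in the effect of Sox9 loss was itself called for 18 members (17 lower and 1 higher, where 23.3% of all genes were called, 12.7% higher and 10.7% lower), among them all 10 enzymes of the sterol arm. For Lss that interaction was -1.66 ± 0.12 (SE) (adjusted p = 4.42e-12) and for Cyp51 -1.56 ± 0.13 (SE) (adjusted p = 6.92e-11).

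Loss of Ctnnb1 alone gave no called difference of a synthesis enzyme from the control of the same sex. XX Ctnnb1KO differed from XX Ctr in 2 of 30 members, 1 higher and 1 lower, where 10.1% of all genes were called (4.81% higher and 5.32% lower), and neither was an enzyme of synthesis. The 17 enzymes differed by -0.35 to 0.35, and their intervals spanned -0.84 to 0.61. Without replicate 4 of XX Ctnnb1KO, the array at odds with its label, 1 member was again higher and 1 lower (8.18% of all genes called), and the enzymes differed by -0.34 to 0.34, with 0 called and intervals spanning -0.73 to 0.78. In XY Ctnnb1KO, 0 members were called against XY Ctr, where 0.0679% of all genes were (0.00849% higher and 0.0594% lower), with 3 members and 473 genes at an unadjusted limma p under 0.05. XY Ctnnb1KO was nonetheless the group with the highest mean for 16 of the 17 enzymes, which differed from XY Ctr by -0.03 to 0.37 (intervals spanning -0.34 to 1.07). Cyp51 there had 4425, 4411, 4591 and 4229.7 (difference 0.22 ± 0.09 (SE), adjusted p = 1). Hepatocyte markers (4 genes, 0 called) summed to 342 to 19586 in XY Ctnnb1KO and 691 to 4059 in XY Ctr. They also varied widely in XX Ctr (963 to 12091) and XX Ctnnb1KO (1192 to 7951), and reached at most 4176 on an array of the remaining groups. Their part in the values of any group was not tested.

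XX DKO differed from XX Ctr in 2 members, 1 higher and 1 lower, where 12.9% of all genes were called (7.29% higher and 5.61% lower), and from XX Ctnnb1KO in 0 members, where 0% of all genes were called (965 genes and 3 members at an unadjusted limma p under 0.05, and 3 members without overlap against 5.21% of all genes; without XX Ctnnb1KO replicate 4 again 0 members and 0% were called). The synthesis enzymes of XX DKO lay -0.33 to 0.13 from XX Ctr, none of them called. Hmgcs1 depended on the probe set here. The one used gave -0.08, while 3 of its other probe sets gave -0.63 (adjusted p = 0.00438), -0.47 (adjusted p = 0.00203) and -0.41 (adjusted p = 0.000709). For Fdft1, squalene synthase, its other probe set gave 0.38 (adjusted p = 0.00611) in XX Ctnnb1KO against XX Ctr and 0.35 (adjusted p = 0.0278) without replicate 4, where the one used gave 0.15. In that comparison 1 other Hmgcs1 probe set gave -0.28 (adjusted p = 0.0252), or -0.32 (adjusted p = 0.0192) without replicate 4, close in size to the -0.28 of the one used. These adjusted p-values are from a limma fit over all probe sets past the filter.

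In XY gonads lacking both genes most of the enzymes had a mean between those of XY Sox9KO and XY Ctr. Against XY Ctr, 15 of the 17 synthesis enzymes were lower in XY DKO and 0 higher, and over all members 18 fell and 1 rose, where 17.2% of all genes were called (9.62% higher and 7.61% lower) and 21 members did not overlap against 25.5% of all genes. Of these enzymes Fdft1 (-0.38, adjusted p = 0.0194) lost its call in 6 alternatives. They were the comparison's arrays alone, leaving out XY Ctr replicate 1 or 3 or XY DKO replicate 2 or 4 (adjusted p of 0.0522 to 0.141 for these 5) and the mean of its probe sets (-0.13, adjusted p = 0.578). That mean adds dim probe sets left out by the filter. In a limma fit over all probe sets, the other bright one of Fdft1 gave -0.34 (adjusted p = 0.0164). In that fit another Idi1 probe set gave -0.72 (adjusted p = 2.07e-06) in XY DKO against XY Ctr, where the one used gave -0.42 and was not called. Another of Mvd gave -0.36 (adjusted p = 0.277) and 1 of Hmgcs1 -0.46 (adjusted p = 0.0521), where those used were called. The rest of Hmgcs1 were called lower. Against XY Sox9KO, 8 enzymes were higher and 0 lower, and over all members 12 rose and 1 fell, where 21.8% were called (11.1% higher and 10.8% lower) and 13 members did not overlap against 26.6% of all genes. The median member difference was 0.32 against -0.02 over all genes.

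Of the 8, 7 belong to the sterol arm. Cyp51 signals in XY DKO were 1870.3, 2153 and 2220.5, above all XY Sox9KO arrays and below all XY Ctr arrays (0.82 ± 0.10 (SE) over XY Sox9KO, adjusted p = 1.13e-07). Msmo1 had 859, 861 and 1019 (0.73 ± 0.14 (SE), adjusted p = 0.000179). Lss had 1602, 1451 and 1510.5 (0.51 ± 0.09 (SE), adjusted p = 8.69e-05). All 3 stood apart from both neighbouring groups. In the limma fit over all probe sets, the other Cyp51 probe sets gave 0.85 (adjusted p = 5.83e-06) and, for the dimmer, 0.37 (adjusted p = 0.176). Those of Lss gave 0.51 (adjusted p = 0.000272) and 0.84 (adjusted p = 0.000587), and a dimmer one of Msmo1 0.63 (adjusted p = 0.248). Fdft1 had 2481, 3274 and 2237 (0.64 ± 0.11 (SE), adjusted p = 0.000104), and its other bright probe set gave 0.46 (adjusted p = 0.00114). The mean over all its probe sets, which adds 2 dim ones left out by the filter, gave an adjusted p of 0.21. Dhcr7 (0.53), Sqle, the squalene epoxidase (0.43), and Nsdhl, a sterol dehydrogenase (0.48), were the others. Nsdhl was not called on the arrays of the comparison alone, nor without XY DKO replicate 2, XY DKO replicate 4, XY Sox9KO replicate 1 or XY Sox9KO replicate 3, with adjusted p of up to 0.136.

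For other steps no difference from XY Sox9KO was called. Tm7sf2 had 192, 185 and 283 in XY DKO against 188, 189, 211 and 234 in XY Sox9KO, and the difference was not called (95% interval -0.27 to 0.42). Sc5d, a sterol desaturase, differed by -0.03 (-0.27 to 0.22), although its other probe set gave 0.50 (adjusted p = 0.026). Ebp, a sterol isomerase, differed by 0.30 (-0.05 to 0.64). In the mevalonate arm, Fdps had 1254, 1163 and 1067 (0.38, 0.08 to 0.68), Mvd 415, 529 and 417, Mvk 285, 345 and 319 and Pmvk 1094, 1099.7 and 1223, and none of these 4 was called. Idi1 was the called member of that arm (0.46, adjusted p = 0.0396), but 8 alternatives gave adjusted p of 0.0536 to 0.154, among them quantile normalization, the mean of its probe sets and leaving out XY DKO replicate 3 or 4 or XY Sox9KO replicate 1, 3 or 4. Its other probe set gave 0.09 (adjusted p = 0.585). Whether single enzymes differed from each other in this response was not tested.

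Expressed as a share of the log2 distance from XY Sox9KO to XY Ctr, the 16 enzymes that fell in XY Sox9KO stood at -53.3% (Hmgcs1) to 62.6% (Fdft1) in XY DKO, with a median of 31.4%. The low end rests on the probe set used for Hmgcs1, whose others stood at 44.7%, 34.7%, -25.3% and -28.3%. Cyp51 stood at 48.9%, Lss at 28.4% and Tm7sf2 at 4.1%. Of the steroid synthesis genes, Cyp11a1 stood at 80.6%, Cyp17a1 at 79.1%, Star at 66.6%, Hsd3b1 at 49.4% and Fdx1 at 43.5%, and beside them Scarb1 stood at 41.7% and Hsd17b7 at 7.5%. Each share depends on the gene's log2 distance, which reached -8.08 among the steroid synthesis genes and -1.81 in the sterol arm. The shares therefore do not rank recovery between these lists. All 5 steroid synthesis genes stayed lower in XY DKO than in XY Ctr (-1.57 to -0.92), as did the 10 sterol arm enzymes (-1.69 to -0.38). The interaction of Ctnnb1 and Sox9 loss in XY gonads was called for 5 members (4 higher and 1 lower, where 9.75% of all genes were called, 5.27% higher and 4.47% lower), including Cyp51 (0.60 ± 0.13 (SE), adjusted p = 0.00238), Lss (0.45) and Fdft1 (0.50, adjusted p = 0.038). Fdft1 lost this call in 11 alternatives (adjusted p of 0.0508 to 0.927), among them leaving out XY Ctnnb1KO replicate 1 or 2, XY Ctr replicate 1, 3 or 4, XY DKO replicate 3 or XY Sox9KO replicate 3 or 4, and Lss without XY DKO replicate 2 (adjusted p = 0.0556).

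Between the double knockouts, XY DKO was higher than XX DKO in 7 members and lower in 0, where 5.22% of all genes were called (3.45% higher), and all 7 were sterol arm enzymes. Msmo1 had 404, 503.6, 471 and 494 in XX DKO and differed most (0.94 ± 0.14 (SE), adjusted p = 5.09e-05). Cyp51 had 1527, 1429.7, 1452 and 1271 in XX DKO (0.55 ± 0.10 (SE), adjusted p = 0.000652), and Lss had 1011, 1178, 1251 and 1058 (0.43, adjusted p = 0.00357). Their arrays did not overlap between the sexes, which held for 14 members and for 17.1% of all genes. Fitted on the arrays of this comparison alone, 3 members were called, where 179 of all genes were, and Lss, Sqle, Nsdhl and Fdft1 were not. Nsdhl also lost its call without XX DKO replicate 3 or XY DKO replicate 2 or 4 (adjusted p of 0.0841 to 0.113), and Fdft1 with the mean of its probe sets (adjusted p = 0.891). The Fdft1 mean adds dim probe sets left out by the filter. Dhcr7 lost its call without XX DKO replicate 2 (adjusted p = 0.0583). In the limma fit over all probe sets, the other Cyp51 probe sets gave 0.70 (adjusted p = 0.000698) and 0.21 (adjusted p = 0.555), and that of Msmo1 0.68 (adjusted p = 0.302). The other bright Fdft1 probe set gave 0.39 (adjusted p = 0.0216) in that fit. The probe set used for Hmgcs1 gave 0.05, and 2 others gave 0.78 (adjusted p = 0.00436) and 0.75 (adjusted p = 7.74e-05).

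**Figure D2:**
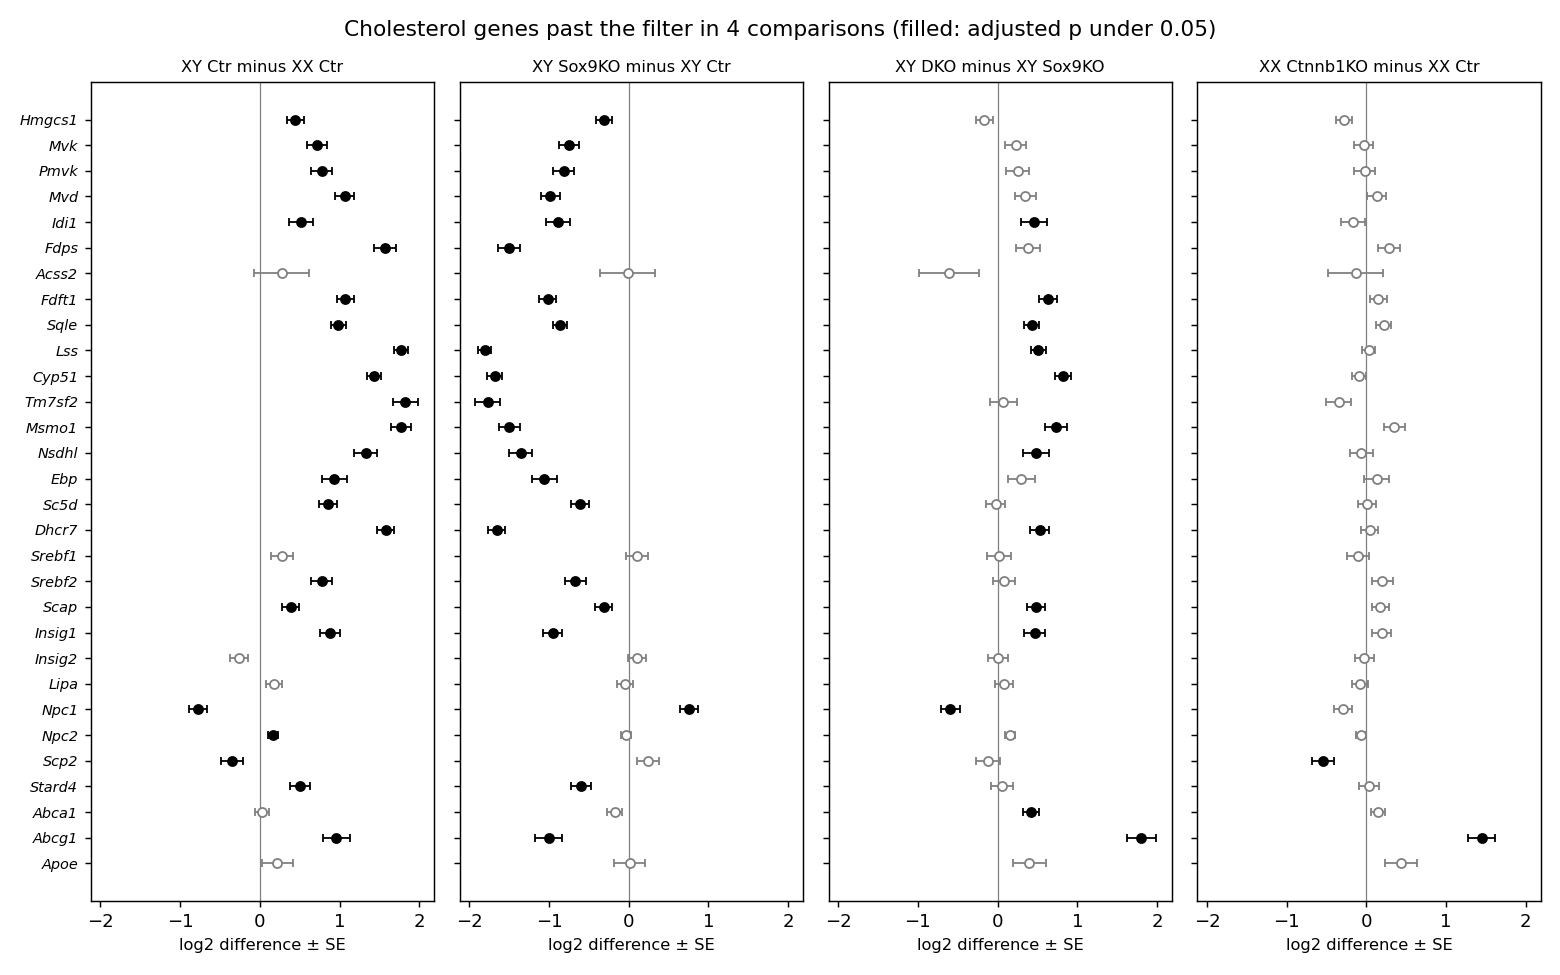
Log2 difference with its SE for the 30 members past the filter in 4 comparisons, filled where the adjusted p was under 0.05. The 17 synthesis enzymes lie right of 0 in XY Ctr minus XX Ctr and left of it, Acss2 barely so, in XY Sox9KO minus XY Ctr, 8 of them are filled in XY DKO minus XY Sox9KO, and Scp2 and Abcg1 are the filled points of XX Ctnnb1KO minus XX Ctr.

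Of the control genes of the pathway, Insig1 and Srebf2 moved with the enzymes while Srebf1 and the probe set used for Insig2 were not called in any comparison. Insig1, itself a target of SREBP, had signals of 2958, 3282, 2867 and 2772 in XX Ctr, 5527, 5120.3, 5227 and 6071 in XY Ctr and 3011, 3525, 2079 and 2851 in XY Sox9KO. The control testis was above both other groups on every array, by 0.88 over XX Ctr (adjusted p = 8.33e-07), and XY Sox9KO differed from it by -0.95 (adjusted p = 2.11e-07). In XY DKO it had 3668, 4359.7 and 3709, 0.47 above XY Sox9KO (adjusted p = 0.0107, and 0.0678 to 0.0693 on the arrays of the comparison alone and without XY DKO replicate 3 or XY Sox9KO replicate 3).

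Srebf2, the SREBP that chiefly drives sterol genes, had 794, 860.4, 817 and 1023 in XX Ctr, 1462, 1459, 1665 and 1426 in XY Ctr and 777, 1038, 753 and 1264 in XY Sox9KO. It was higher in the control testis by 0.78 (adjusted p = 1.59e-05) and fell by 0.67 in XY Sox9KO (adjusted p = 0.000121). XY DKO arrays had 1080.2, 1061 and 851, 0.08 from XY Sox9KO and not called (95% interval -0.21 to 0.37). Scap had 816, 965, 1020.0 and 893 in XX Ctr, 1250.2, 1097, 1304 and 1192 in XY Ctr, 859, 905, 1010.5 and 1124 in XY Sox9KO and 1321, 1227 and 1547 in XY DKO. It was 0.39 higher in XY Ctr than in XX Ctr, differed by -0.31 in XY Sox9KO from XY Ctr and was 0.48 higher in XY DKO than in XY Sox9KO, each called. The mean of its probe sets, which adds a dim one left out by the filter, gave adjusted p of 0.166, 0.217 and 0.959. The fall in XY Sox9KO also lost its call without XY Ctr replicate 3 or XY Sox9KO replicate 1 or 2 (adjusted p of 0.0535 to 0.0741). Srebf1, which chiefly drives fatty acid genes, ranged from 527 to 1077 over the 31 arrays, and Insig2 from 534 to 906. Another Insig2 probe set was lower in XY Ctr than in XX Ctr, at -0.41 (adjusted p = 0.0126), where the one used gave -0.26.

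Among the genes that release and carry sterol, Npc1 and 1 probe set of Scp2 ran against the enzymes. Npc1, which exports cholesterol from the lysosome, had 851, 1198, 1175 and 1272 in XX Ctr, 669, 670.0, 698 and 549 in XY Ctr and 1115, 1054, 1148 and 1068 in XY Sox9KO. It was lower in the control testis (-0.77 ± 0.11 (SE), adjusted p = 1.65e-06) and rose in XY Sox9KO (0.75 ± 0.11 (SE), adjusted p = 2.62e-06), with no overlap in either case. XY DKO had 714, 783 and 673, -0.59 from XY Sox9KO (adjusted p = 0.000496). In XX DKO it had 737, 812, 956 and 916, and its call against XX Ctr (-0.38, adjusted p = 0.0213) was lost in 6 alternatives, including without XX Ctr replicate 2, 3 or 4 or XX DKO replicate 1 or 2 (adjusted p of 0.0546 to 0.117). Pregranulosa markers moved alongside, with 6 of 6 lower in XY Ctr than XX Ctr, 6 of 6 higher in XY Sox9KO than XY Ctr and summed signals of 9742 to 10498 in XY Sox9KO and 1999 to 2403 in XY DKO. Over all genes, 19.8% were lower and 22.7% higher in these comparisons. The markers and Npc1 parted in XX Ctnnb1KO against XX Ctr. There 6 of 6 markers were lower, with sums of 2727 to 3079 against 8791 to 9764, while Npc1 was not called, both with and without replicate 4. Over all genes 10.1% were called there, and 8.18% without replicate 4. In XX DKO against XX Ctr 6 of 6 markers were lower as well, where 12.9% of all genes were called. The part of the pregranulosa markers in the Npc1 values was not tested.

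Stard4, a soluble sterol carrier and SREBP target, followed the enzymes between the controls. It had 606, 697, 804 and 884 in XX Ctr and 1194, 1109.5, 746 and 1258 in XY Ctr, where replicate 3 lay inside the ovary range, and differed by 0.50 (adjusted p = 0.00194). Its other probe sets gave 0.25 (adjusted p = 0.293) and 0.46 (adjusted p = 0.0266). XY Sox9KO had 760.1, 666, 731 and 626 (-0.60, adjusted p = 0.000353), and XY DKO 734, 729 and 699.8, 0.05 from XY Sox9KO (95% interval -0.22 to 0.33). Scp2, another sterol carrier, had 2235, 1622, 1850.0 and 1632 in XX Ctr and 1092, 1109.9, 1415 and 1380.1 in XX Ctnnb1KO, with no overlap. It fell there by 0.55 on the log2 scale (adjusted p = 0.00778, and -0.60 with 0.00879 without replicate 4, the array at odds with its label). Its other 2 probe sets gave -0.27 (adjusted p = 0.255) and -0.22 (adjusted p = 0.192), and the mean of all of them an adjusted p of 0.0507. The probe set at -0.22 ran as Npc1 did, with -0.42 (adjusted p = 0.000584) in XY Ctr against XX Ctr, 0.60 (adjusted p = 6.65e-06) in XY Sox9KO against XY Ctr and -0.59 (adjusted p = 5.80e-05) in XY DKO against XY Sox9KO, where the probe set used gave -0.35, 0.24 and -0.12. The differences of Scp2 (-0.35) and of the lysosomal carrier Npc2 (0.16) between the control sexes each lost their call in 9 alternatives (adjusted p of up to 0.184 and 0.477). For Scp2 these included leaving out XX Ctr replicate 1 or 3 or XY Ctr replicate 1, 2 or 3, and for Npc2 XX Ctr replicate 2 or 3 or XY Ctr replicate 1, 3 or 4. Npc2 had 7596, 7194, 7075 and 7521 in XX Ctr and 8427, 7799, 8317 and 8341 in XY Ctr. In the limma fit over all probe sets, the other 2 of Npc2 past the filter gave 0.25 (adjusted p = 0.00822) and 0.50 (adjusted p = 0.0132) between the control sexes. The Scp2 probe set at -0.27 above gave -0.33 (adjusted p = 0.0485) there. The Npc2 probe set at 0.50 was lower in XY Sox9KO than in XY Ctr, at -0.59 (adjusted p = 0.00423). The one used gave -0.03 in that comparison, and the one at 0.25 gave -0.05 (adjusted p = 0.633). Lipa, the lysosomal cholesteryl ester hydrolase, was not called in any comparison by the probe set used, with signals of 731 to 1238 over all arrays. Its other 2 gave 0.46 (adjusted p = 0.0201) and 0.19 (adjusted p = 0.147) in XY Ctr against XX Ctr, and -0.14 (adjusted p = 0.501) and -0.38 (adjusted p = 0.00291) in XY Sox9KO against XY Ctr.

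Abcg1, which exports sterol from the cell and is a target of LXR, had a pattern unlike that of the enzymes and rose where Ctnnb1 was lost in XX gonads. Signals were 253, 408, 261 and 365 in XX Ctr, 1030.1, 753, 820.4 and 969 in XX Ctnnb1KO and 778, 660.0, 926 and 874 in XX DKO. Every array lacking Ctnnb1 was above every control, 2.72-fold in XX Ctnnb1KO (1.44 ± 0.17 (SE), adjusted p = 2.52e-07, and 1.40 with 3.04e-06 without replicate 4) and 2.47-fold in XX DKO (adjusted p = 1.40e-06). In XY gonads it had 592, 737, 683 and 521 in XY Ctr, 568.1, 726, 655 and 615 in XY Ctnnb1KO, 318, 399.7, 259.6 and 261 in XY Sox9KO and 979, 1227 and 1118 in XY DKO. XY Ctr was above XX Ctr (0.96, adjusted p = 4.00e-05), XY Sox9KO below XY Ctr (-1.005, adjusted p = 2.09e-05) and XY DKO above both XY Ctr (0.80) and XY Sox9KO (1.80 ± 0.18 (SE), adjusted p = 9.46e-09). The effect of Ctnnb1 loss differed between the sexes by 1.42 ± 0.24 (SE) (adjusted p = 0.000239, and 1.38 with 0.000821 without the array at odds with its label). Scp2 was the other of the 2 members called in that interaction, where 4.19% of all genes were (1.75% higher and 2.45% lower). In XY gonads the effect of Ctnnb1 loss differed between those with and without Sox9 by 1.78 ± 0.25 (SE) (adjusted p = 8.58e-06).

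Macrophage and leukocyte markers moved with part of this pattern. Their summed signal (11 genes, all past the filter) was 3276 to 5857 in XX Ctr, 5314 to 9837 in XX Ctnnb1KO, 7229 to 8778 in XX DKO and 8054 to 9987 in XY DKO, and 6, 8 and 9 of the 11 were higher in XX Ctnnb1KO and XX DKO than in XX Ctr and in XY DKO than in XY Sox9KO, with 6 again in XX Ctnnb1KO without replicate 4. Over all genes 4.81%, 7.29% and 11.1% were higher in these comparisons. Between XY Ctr (4081 to 5319) and XY Sox9KO (4293 to 5122), which differed in Abcg1, 0 of the 11 were called, where 38.7% of all genes were. Between the control sexes 1 was lower and 0 higher in XY Ctr, where 37.8% of all genes were called. The lowest signal among the 11 was 43.4, where array medians ran from 121 to 169. The part of these markers in the Abcg1 values was not tested. Abca1, another sterol exporter, was called once, 0.42 higher in XY DKO (1702, 1806 and 1959.5) than in XY Sox9KO (1446, 1377, 1423 and 1204, adjusted p = 0.00207), where another of its probe sets gave 0.10 (adjusted p = 0.61). The remaining one gave 0.37 (adjusted p = 0.0123) in that comparison. It was also lower in XY Sox9KO than in XY Ctr, at -0.31 (adjusted p = 0.0155), where the one used gave -0.18. Apoe, which carries lipid outside the cell, was not called in any comparison and ran from 172 to 624.

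**Figure D3:**
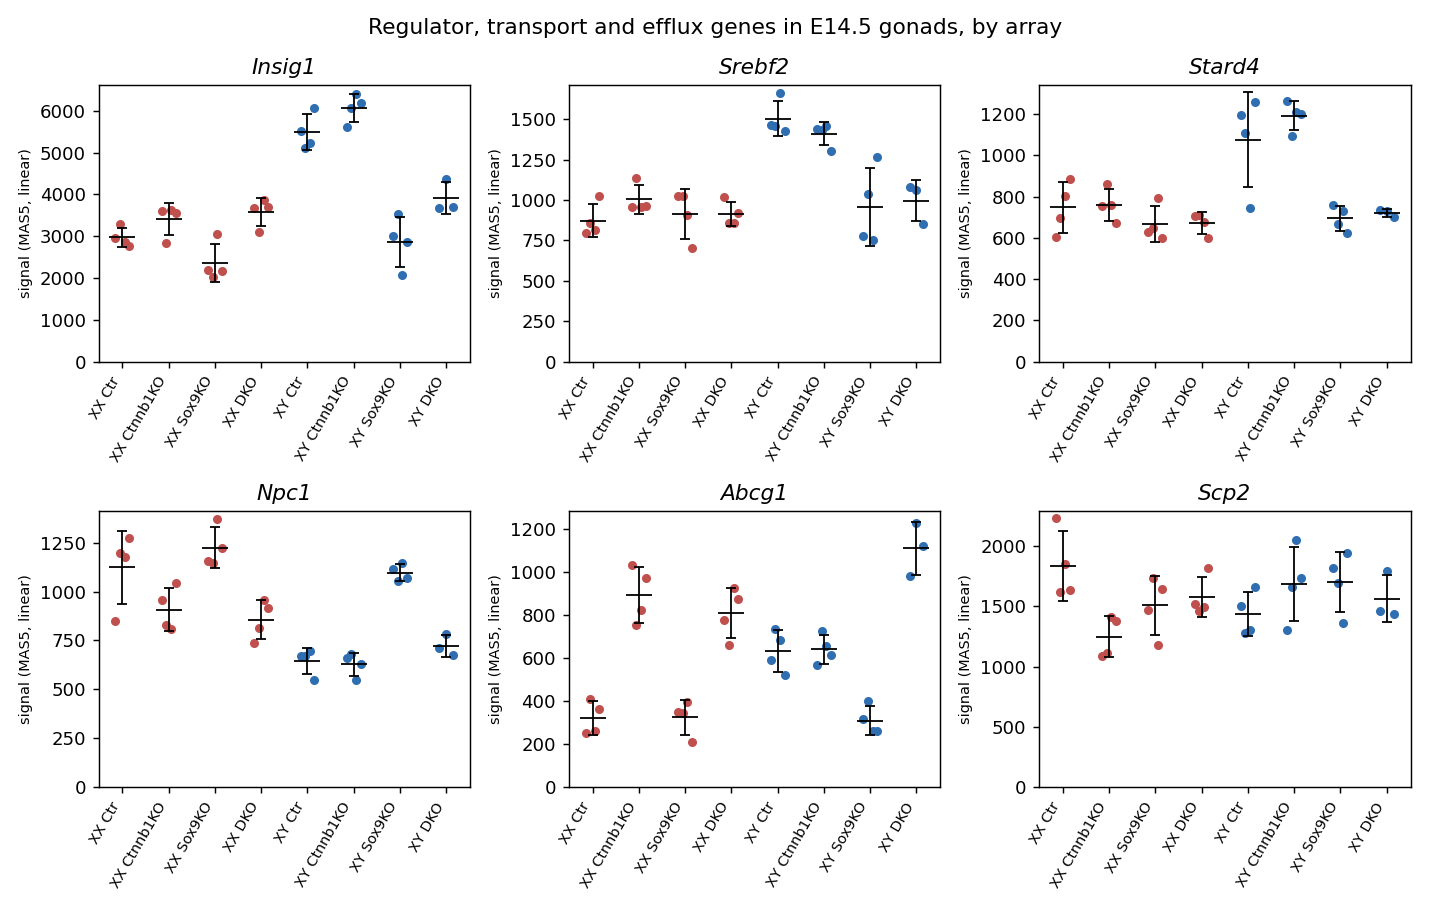
Signal (MAS5, linear axis) of Insig1, Srebf2, Stard4, Npc1, Abcg1 and Scp2 on each array of the 8 groups, with points for arrays (red XX, blue XY) and black lines for the group mean and SD. Insig1 and Srebf2 are high in XY Ctr and XY Ctnnb1KO, Npc1 is low there, and Abcg1 is highest in XY DKO (979 to 1227) and low in XX Ctr, XX Sox9KO and XY Sox9KO.

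Of 31 further sterol genes listed beside the members, 24 had a probe set of their own and 21 passed the filter. In XY Ctr against XX Ctr 5 were higher and 3 lower (median 0.01), which is 38.1% called against 37.8% of all genes. In XY Sox9KO against XY Ctr 3 were higher and 7 lower (median -0.02), or 47.6% against 38.7%. Scarb1, the receptor that takes cholesteryl ester from lipoprotein, had 741, 853, 824 and 761 in XX Ctr and 3674, 3337, 4175 and 3707 in XY Ctr (2.20 ± 0.09 (SE), adjusted p = 1.02e-18). It had 819, 872, 863 and 1082 in XY Sox9KO and 1739, 1526 and 1639 in XY DKO, 0.84 above XY Sox9KO (adjusted p = 4.62e-08). Hsd17b7, which reduces a keto group in sterol synthesis, was higher in the control testis (1.51), lower in XY Sox9KO (-1.35) and not called between XY DKO and XY Sox9KO (0.10). Vldlr, a lipoprotein receptor, was 0.90 higher in the control testis, while Lrp8, a related receptor, and Mylip, a ligase that marks such receptors for breakdown, were lower (-0.60 and -0.85). In XX DKO against XX Ctr Hsd17b7 alone of the list was called, lower, where 12.9% of all genes were called. It was also the 1 gene called in the sex by Ctnnb1 interaction (4.19% of all genes), with 0 without XX Ctnnb1KO replicate 4 (3.64%). XY DKO was higher than XX DKO in 4 of the list, Hsd17b7 among them, and lower in 1 (5.22% of all genes).

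Fatty acid synthesis genes that SREBP also drives showed a similar split between the controls. Of 12 past the filter, 9 were higher in XY Ctr than in XX Ctr and 0 lower (median 0.68), where 18% of all genes were higher. In XY Sox9KO against XY Ctr 8 were lower and 0 higher (median -0.68), where 16% of all genes were lower, and in XY DKO against XY Ctr 10 were lower and 0 higher, where 7.61% were lower. Me1, malic enzyme, differed by 1.89 and -1.67 in these comparisons, and Elovl6, a fatty acid elongase, by 1.59 and -1.20. Against XY Sox9KO, XY DKO had 4 higher and 2 lower, where 11.1% of all genes were higher and 10.8% lower. Me1 stood at 0.66 and the desaturase Scd1 at -1.004 (adjusted p = 0.00049). In XX Ctnnb1KO 2 were lower than in XX Ctr, Scd1 (-0.84, and -0.82 without replicate 4) and the elongase Elovl5 (-0.24, and -0.29), where 5.32% of all genes were lower. In XX DKO 4 were lower, Scd1 (-1.13), Elovl5 (-0.23), the carboxylase Acaca (-0.42) and the desaturase Fads2 (-0.43), where 5.61% were lower.

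Steroid synthesis markers followed the enzymes in the XY groups and parted from them in the XX groups. All 5 measured markers were higher in XY Ctr than in XX Ctr, lower in XY Sox9KO than in XY Ctr and higher in XY DKO than in XY Sox9KO. For these and the marker counts below, 37.8%, 38.7% and 21.8% of all genes were called in the same comparisons. The summed signal of the 5 markers was 4107 to 4815 in XX Ctr, 41259.8 to 47155 in XY Ctr, 4710.1 to 5526 in XY Sox9KO and 16432 to 20817 in XY DKO. That of the 10 sterol arm enzymes was 7716 to 8710.1, 20956 to 23316, 7836 to 8732 and 11868 to 12659.9 in the same groups. Sertoli markers also moved, 7 of 7 higher in XY Ctr than XX Ctr, 7 of 7 lower in XY Sox9KO and 4 higher with 1 lower in XY DKO against XY Sox9KO, with a sum of 3588 to 3873 in XY DKO. Adrenal cortex markers moved too, 3 of 4 higher in XY Ctr than XX Ctr, 3 lower in XY Sox9KO than XY Ctr and 3 higher in XY DKO than XY Sox9KO, with sums of 255 to 392 in XX Ctr, 1125 to 1339 in XY Ctr, 271 to 353 in XY Sox9KO and 461 to 672 in XY DKO. Of 6 germ cell markers, 2 were higher and 1 lower in XY Ctr than XX Ctr, 2 higher and 3 lower in XY Sox9KO than XY Ctr, and 3 higher in XY DKO than XY Sox9KO, with sums of 9024 to 15938, 13228 to 17398, 13561 to 16742 and 9991 to 23331 in the same groups. In XX Ctnnb1KO 3 of them were higher than in XX Ctr, where 10.1% of all genes were called, and 0 without replicate 4 (8.18%). The lowest signal was 4.44 among the steroid, 5.79 among the Sertoli, 0.77 among the adrenal and 109 among the germ cell markers. Array medians ran from 121 to 169, so some markers lay far below them on some arrays. The part of these cell types in the enzyme values was not tested. In XX Ctnnb1KO, Star, which moves cholesterol into mitochondria, had 709, 811, 759 and 651 against 324, 270.0, 272 and 299.6 in XX Ctr (1.28 ± 0.12 (SE), adjusted p = 2.70e-09, and 1.34 without replicate 4). Cyp17a1, needed for androgen synthesis, had 309, 1074, 593 and 474 against 95.9, 114, 87.3 and 151. Star, Cyp11a1 and Cyp17a1 were higher and Hsd3b1 lower both in XX Ctnnb1KO (also without replicate 4) and in XX DKO than in XX Ctr, while 0 of the 17 synthesis enzymes were called there.

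**Figure D4:**
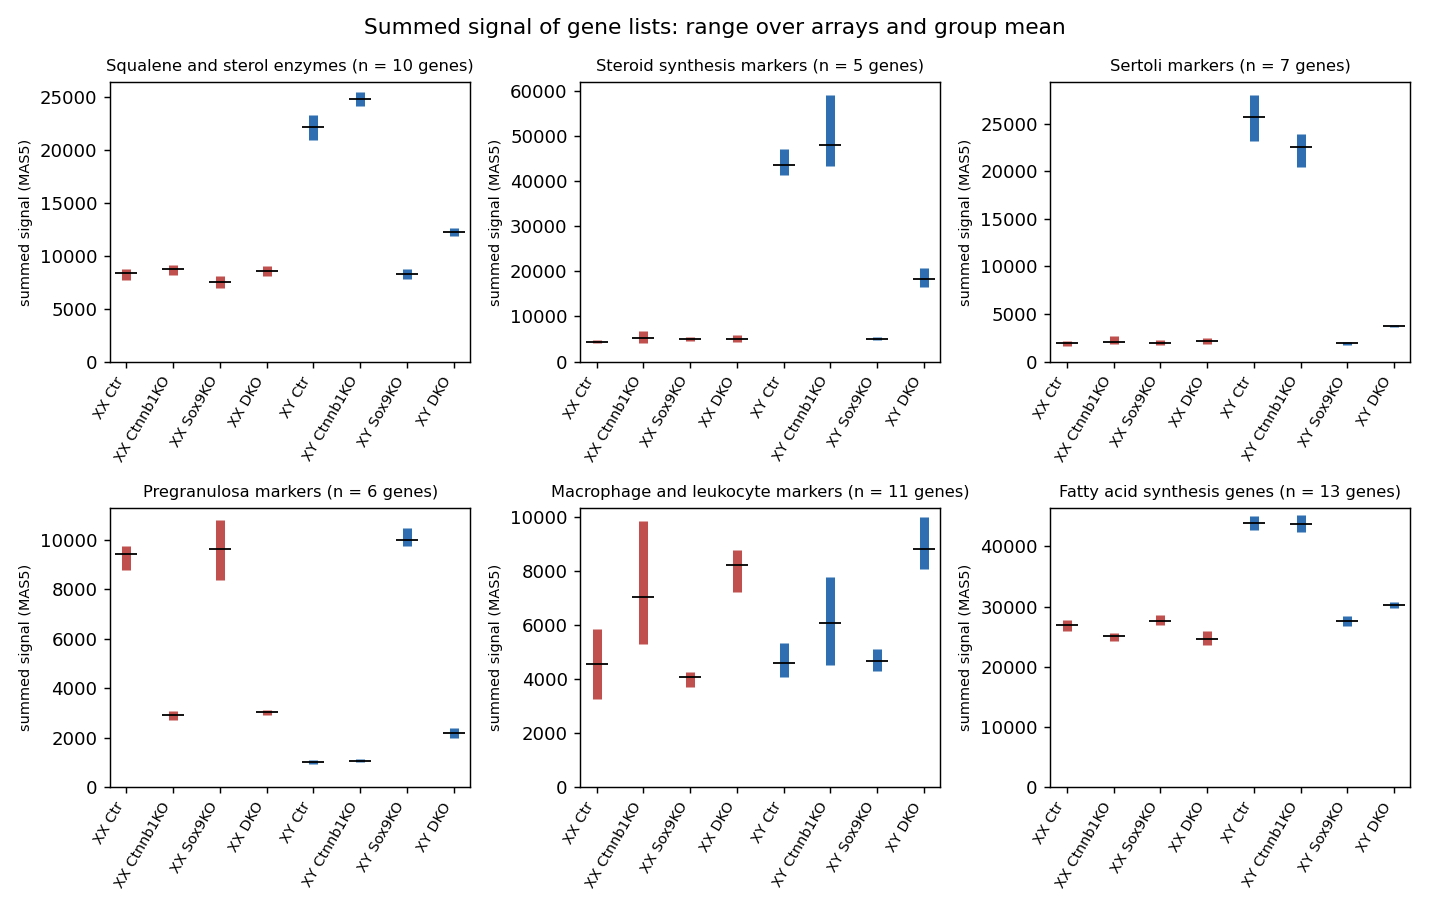
Summed signal (MAS5, linear axis) of 6 gene lists by group, with bars for the range over arrays (red XX, blue XY) and black lines for the group mean. The sterol enzymes and the steroid synthesis markers are high in XY Ctr and XY Ctnnb1KO and intermediate in XY DKO, the pregranulosa markers are low in those groups, and the macrophage and leukocyte markers have their highest mean in XY DKO. The fatty acid panel holds 13 genes, 1 of them below the filter.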

How the data were processed

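RNA from 31 pairs of gonads was amplified, labelled with biotin and hybridised, per the labels' protocols. The authors deposited linear signal intensity per probe set, made with MAS5 per the submitters' processing notes (with the version not given in the sources used here), and the trimmed mean of every array was 500.002. Array medians ran from 121 to 169, and the number of arrays limits the precision. Platform annotation gave 34945 of 45101 probe sets 1 gene symbol, 932 several and 9160 none, besides 64 controls. Per gene the probe set with the highest mean log2(signal + 16) was used; this scale understates differences of dim genes. Genes above their array's median on at least 3 arrays were kept.

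All arrays entered 1 limma fit (3.58.1, R 4.3.3) of 8 group means with a trended eBayes (23 residual degrees of freedom), and p-values were adjusted by Benjamini-Hochberg over 11777 genes per comparison. Group differences are log2 with SE and 95% intervals from this fit. Signals are given for up to 4 called members per role with the smallest adjusted p. The fit was tested on simulated data. The alternatives changed the pseudocount to 1 or 64, quantile-normalized the arrays, dropped the filter, averaged a gene's probe sets, fitted a comparison's arrays alone, added the replicate number as a block and left out each replicate. Motifs were searched in RefSeq promoter tables. The members and lists were chosen with earlier results of these data known.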

Additional observations from a re-analysis of the deposited data

Results flagged for a closer look

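In 11 of 210 groups of 4 arrays tested, 1 array stood far from the others, where chance gives about 1 in 20. Signals of that array, set against the range of the other 3, were 13535 against 11076 to 11376 for Hmgcs1 in XY Ctr replicate 3, 1665 against 1426 to 1462 for Srebf2 in the same array, 557 against 611 to 622 for Ebp in XY Ctr replicate 2 and 7799 against 8317 to 8427 for Npc2 in that array. In XX DKO replicate 2 they were 681 against 940.1 to 995 for Pmvk and 1301 against 1592 to 1640.5 for Dhcr7, and in XX DKO replicate 4 1819.6 against 1462 to 1515 for Scp2. In XX Ctnnb1KO replicate 2 they were 1139 against 958 to 962 for Srebf2 and 2829 against 3556 to 3637 for Insig1. Scap in XX Sox9KO replicate 1 had 1052 against 852 to 879, and Apoe in XY Ctnnb1KO replicate 3 had 172 against 337 to 371.

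The effect of Sox9 loss differed between XY and XX gonads for 18 members, as tested by the interaction in limma (XY effect minus XX effect, log2, adjusted p under 0.05). In the sterol arm it was -1.66 for Lss, -1.65 for Tm7sf2, -1.56 for Cyp51, -1.50 for Dhcr7, -1.41 for Msmo1, -1.16 for Nsdhl, -1.001 for Ebp, -0.79 for Sqle, -0.72 for Fdft1 and -0.70 for Sc5d. In the mevalonate arm it was -1.31 for Fdps, -0.90 for Mvk, -0.86 for Mvd and -0.74 for Pmvk. Srebf2 had -0.73, Insig1 -0.61 and Abcg1 -1.01, and Npc1 had 0.62 in the other direction. Fdft1 missed the threshold with the mean of its probe sets (adjusted p = 0.0811), which adds dim ones left out by the filter.

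The effect of Ctnnb1 loss (coded as XX effect minus XY effect) differed between the sexes for Abcg1, by 1.42, and for Scp2, by -0.77. Between XY gonads without and with Sox9 it differed by 1.78 for Abcg1, 0.60 for Cyp51, 0.50 for Fdft1, 0.45 for Lss and -0.55 for Npc1, the last of which missed the threshold without XY Ctnnb1KO replicate 1 or 2, XY Ctr replicate 4, XY DKO replicate 2 or 4 or XY Sox9KO replicate 3 (adjusted p of 0.0545 to 0.0769).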

How the results depend on the processing

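Alternatives were run for all 14 comparisons and for the 114 called results of single members. Of 1866 such values under the alternatives, 1779 kept direction and call, 87 over 24 results kept direction but missed the threshold, and 0 reversed. The number of members called moved by over 1.5 times for XY DKO against XX DKO fitted on its own arrays (3 in place of 7) and for the sex by Ctnnb1 interaction with the mean of all probe sets (1 in place of 2). Over all genes these settings called 179 in place of 615 and 492 in place of 494. Leaving out 1 array at a time gave 22 to 24 members for XY Ctr against XX Ctr, 20 to 22 for XY Sox9KO against XY Ctr, 17 to 20 for XY DKO against XY Ctr, 10 to 14 for XY DKO against XY Sox9KO, 6 to 8 for XY DKO against XX DKO and 18 to 21 for the sex by Sox9 interaction. It gave 2 to 5 for XX Ctnnb1KO against XX Ctr (5 without XX Ctr replicate 1), 1 to 4 for XX DKO against XX Ctr (1 without XX Ctr replicate 2 or 4 or XX DKO replicate 1 or 2, 4 without XX DKO replicate 3), 1 to 2 for the sex by Ctnnb1 interaction (1 without XY Ctnnb1KO replicate 3) and 3 to 5 for the Ctnnb1 by Sox9 interaction (3 without XY Ctnnb1KO replicate 1 or 2, XY Ctr replicate 4, XY DKO replicate 2 or XY Sox9KO replicate 3). Over all genes, leaving out 1 array called 3894 to 4394, 3956 to 4502, 1389 to 2014 and 1916 to 2834 in the same order. For the next comparisons it called 349 to 660, 2385 to 2844, 963 to 1133 and 1137 to 1451. The interactions of Ctnnb1 with sex and with Sox9 gave 409 to 484 and 961 to 1273. The causes of these changes were not tested. With 3 or 4 arrays per group, differences inside the intervals given could not be resolved. Genes above their array's median on fewer than 3 arrays were not tested. A tested gene could still read near background in whole groups, as Sox9 did in XY Sox9KO (7.14 to 41.7).

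Over all genes, the 74 called between XY Sox9KO and XX Ctr became 7 on the comparison's own arrays, 30 without the filter, 116 with quantile normalization and 8 (without XX Ctr replicate 3) to 228 (without XX Ctr replicate 4) with 1 array left out, each of the 8 arrays moving it by over 1.5 times. The 615 called between XY DKO and XX DKO became 179 on their own arrays and 349 to 660 with 1 array left out (391, 349 and 366 without XX DKO replicate 2, XX DKO replicate 3 and XY DKO replicate 4), and the 2572 between XY DKO and XY Sox9KO became 1705 on their own arrays. For XY Ctnnb1KO against XY Ctr, 8 became 5 without XY Ctnnb1KO replicate 4, and the share called higher went from 12.5% to 25% with a pseudocount of 64. For XX Sox9KO against XX Ctr, 0 became 1 without XX Ctr replicate 2 or XX Sox9KO replicate 3.

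The labels number replicates in every group. Arrays with the same number did not deviate together (105 pairs, r from -0.448 to 0.537, 25 over 0.1, 8 of 31 arrays correlating best with their own number). With the replicate block, members called numbered 23, 2, 0, 2, 0 and 0 for XY Ctr, XX Ctnnb1KO, XX Sox9KO and XX DKO against their reference, XX DKO against XX Ctnnb1KO and XY Ctnnb1KO against XY Ctr. They numbered 22, 19, 14, 0 and 7 for the comparisons from XY Sox9KO against XY Ctr to XY DKO against XX DKO, and 2, 18 and 5 for the interactions.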
